A study of Drosophila melanogaster with 6 samples.

Results

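Sex-lethal (Sxl) and 5 genes that act on it, sisA, dpn, emc, her and snf, were followed in whole embryos of the fruit fly Drosophila melanogaster with and without normal maternal zelda (zld) function. Members were the probe sets that the platform annotation assigned to 1 of these 6 genes and to no other gene. This gave 6 probe sets of 18769 tested, 3 for Sxl and 1 each for dpn, emc and her, or 4 genes of 11981 named by a probe set of their own. No probe set used here carried the name sisA or snf, and these 2 genes were not analysed here. Total RNA was hybridised to Affymetrix Drosophila Genome 2 arrays, 1 sample per array. The mutant group, labelled zld germ-line clone or zld-glc, comprised 3 samples of embryos from mothers with a zld mutant germ line. The control group held 3 samples of yw embryos, labelled wild type. The zld allele, the zygotic genotype of the mutant embryos and the sex of the embryos are not given in the labels. All embryos were aged 1 to 2 h, and the series text places 90% of a stained portion in nuclear cycles 8 to 13. The series text gives the samples as 3 replicate collections, while the sample protocols speak of duplicate collections, so every p-value measures the spread between these samples alone, which may be partly technical.

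In this fly, sex is set in the syncytial embryo by the number of X chromosomes. X-linked signal genes (sisA, scute (sc), unpaired (upd1) and runt) activate an early promoter of Sxl in females, with the maternal proteins Daughterless and Hermaphrodite, while the autosomal repressor Deadpan, working with Groucho, and the inhibitor Extramacrochaetae act against it. The early Sxl protein then directs the splicing of transcripts from a second, later promoter that is active in both sexes, so that the female state maintains itself. Zelda, a zinc finger factor loaded into the egg, is known to act on many of the first genes transcribed in the embryo.

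Markers of the labelled stage were present. Of 8 listed maternal genes 6 were measured, among them bcd and osk, and none of their 9 probe sets was at or under background in either group or changed in the test (limma, as below). All 7 listed blastoderm genes, such as eve and nullo, were measured above background, and 5 of them fell in zld-glc embryos in the same test. The share that fell over all tested probe sets was 0.778%. Background was taken as a signal of 18.1, the 95th percentile of 162 values from 27 control probe sets for Bacillus genes. Above it lay 8969 to 9430 probe sets on the zld-glc arrays and 9873 to 10529 on the yw arrays. The median signal was likewise lower on zld-glc arrays, at 16.4 to 18.3 against 20.3 to 23.3. On the log2 scale, arrays correlated across probe sets at 0.982 to 0.992 within groups and at 0.971 to 0.982 between groups. The zld transcript itself had signals of 263.1, 195.7 and 214.9 on zld-glc arrays and of 1023.2, 1062.4 and 966.8 on yw arrays, and fell by 2.11 on the log2 scale (limma, SE 0.114 and adjusted p = 1.92e-04). All signals are on a linear scale and carry the scaling that the authors' software gave them. Fold changes are zld-glc over yw on the log2(signal + 16) scale, which understates changes of dim transcripts. A probe set was called changed at a limma adjusted p under 0.05, with Benjamini-Hochberg adjustment over all 18769 probe sets.

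Of the 6 member probe sets, 1 fell and 0 rose. Over all tested probe sets 0.778% fell and 0.863% rose (146 and 162 probe sets, or 127 and 552 after median centring of the arrays). At an unadjusted p under 0.05, 2 members were lower and 1 was higher with limma, where the shares over all probe sets were 8.67% and 6.69%. With the methods' t-test 2 were lower and 0 higher at that level, where the shares were 7.91% and 5.36%, and none passed after adjustment. In 2 members all zld-glc arrays lay below all yw arrays, as they did for 13.6% of all probe sets. No member had all zld-glc arrays above, against 8.11% of all probe sets. The member that fell was a probe set of Sxl, and the other with separate groups was that of dpn. The median log2 fold change was -0.20 over the 6 members and -0.05 over all probe sets.

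**Figure D1:**
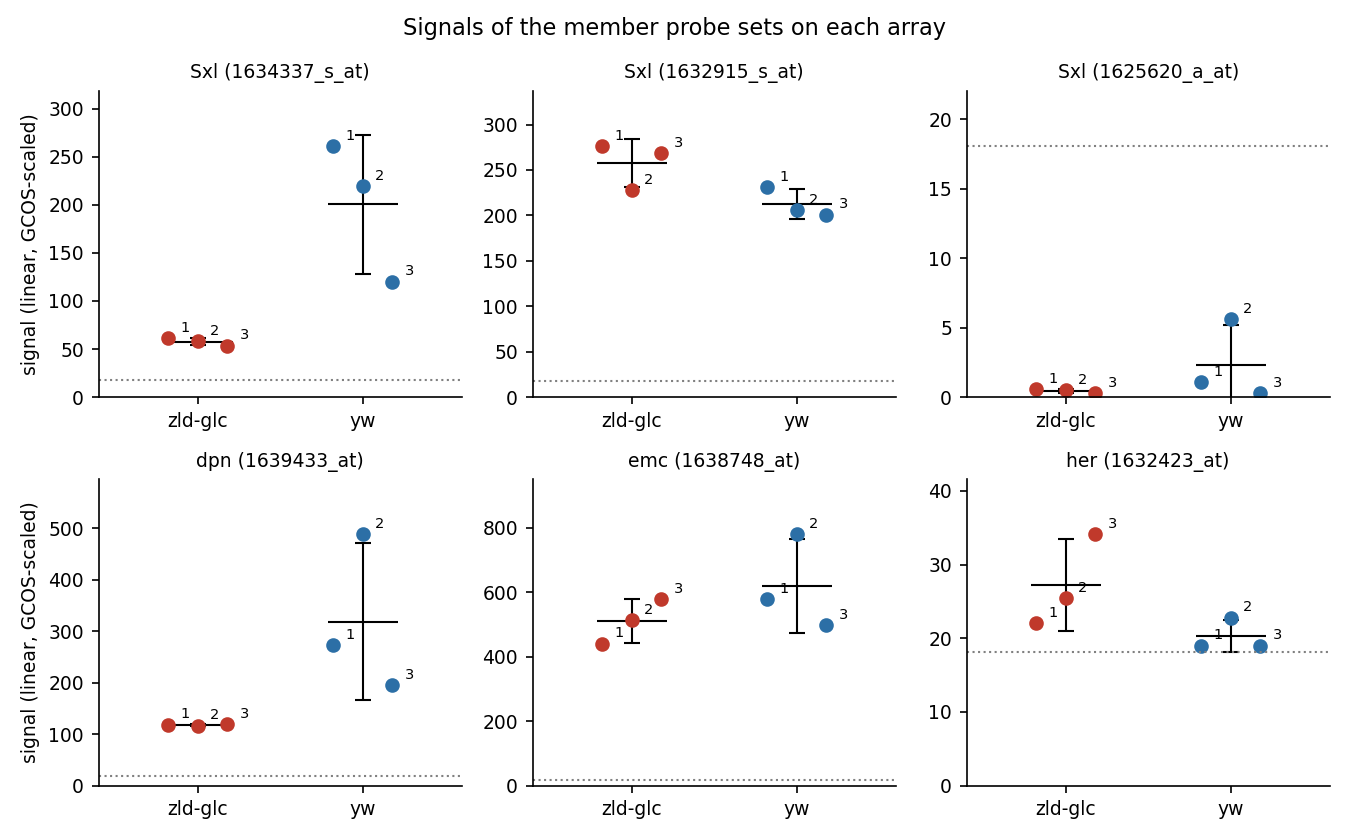
Signal (linear, scaled by the authors' software) of each member probe set on the 3 zld-glc and 3 yw arrays. Points are arrays with their replicate number, black bars the group mean and SD (n = 3), and the dotted line the background level of 18.1. Groups are separate for Sxl probe set 1634337_s_at and for dpn, and the Sxl probe set 1625620_a_at lies under background on every array.

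Sxl lies on the X chromosome and encodes an RNA-binding protein that switches splicing. The RefSeq table used here lists 25 transcripts for it, against 1 each for dpn and emc. The sources used here do not say which of these transcripts each probe set matches, so early and late transcripts could not be assigned to probe sets. The suffixes _s_at and _a_at of the 3 Sxl probe sets mark, by the maker's convention, probes shared by several transcripts.

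The Sxl probe set 1634337_s_at had signals of 61.0, 58.5 and 53.5 on the zld-glc arrays of replicates 1, 2 and 3. On the yw arrays of replicates 1, 2 and 3 it had 261.3, 219.6 and 120.2. The zld-glc values lay close together, the yw values were spread over 2.17-fold, and the groups did not overlap. The mean was 57.7 ± 3.82 in zld-glc and 200 ± 72.5 in yw embryos (SD, n = 3 each), so that 28.8% of the yw signal remained. The log2 fold change was -1.49, with a 95% interval from -2.06 to -0.93 (SE 0.244; limma, adjusted p = 0.0268). Only 74 of the 18769 probe sets, 0.394%, had a lower value. The remaining signal was above background on all 3 zld-glc arrays. The call ended when any 1 zld-glc array was left out (adjusted p from 0.0949 to 0.144, limma) and without yw replicate 2 (adjusted p = 0.0813). It also ended with a pseudocount of 64 (0.0532), without the trend in eBayes (0.0535) and with the methods' t-test (0.219), and without yw replicates 1 and 2 together the log2 fold change was -0.89 (adjusted p = 0.119).

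The Sxl probe set 1632915_s_at went the other way in its mean and was not called. Its signals were 276.6, 228.0 and 268.4 on the zld-glc arrays and 231.3, 206.2 and 200.8 on the yw arrays. The groups overlapped, since zld-glc replicate 2 lay just under yw replicate 1. The means were 258 ± 26 and 213 ± 16.3 (SD, n = 3 each), a log2 fold change of 0.26 (95% interval 0.01 to 0.50, adjusted p = 0.307, limma). Its yw signals spanned 1.15-fold, and 76.2% of the probe sets above the median brightness had a wider span over the same arrays. For 1634337_s_at that share was 8.83%.

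The changes of these 2 Sxl probe sets were compared within arrays, which largely removes factors that scale a whole array. The log2 ratio of 1634337_s_at to 1632915_s_at was -1.93, -1.71 and -2.03 on the zld-glc arrays and 0.17, 0.08 and -0.67 on the yw arrays. The ratio was lower on every zld-glc array than on any yw array. The means were -1.89 ± 0.164 and -0.14 ± 0.461 (SD, n = 3 each), a difference of -1.75. An exact two-sided permutation test over the 20 regroupings of the arrays gave p = 0.1, the smallest value that 3 against 3 arrays allow, so this test cannot pass a threshold of 0.05. This was the 1 pair of Sxl probe sets above background, so no adjustment was needed. The ratio describes an unequal change on these arrays, which the test could not call. It does not say which probe set changed or whether either stayed constant.

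The third Sxl probe set, 1625620_a_at, had signals of 0.6, 0.5 and 0.3 on the zld-glc arrays and 1.1, 5.6 and 0.3 on the yw arrays. All 6 were under background, so these signals carry no measured difference. Across the 18769 probe sets, 6686 were likewise at or under background on every array.

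**Figure D2:**
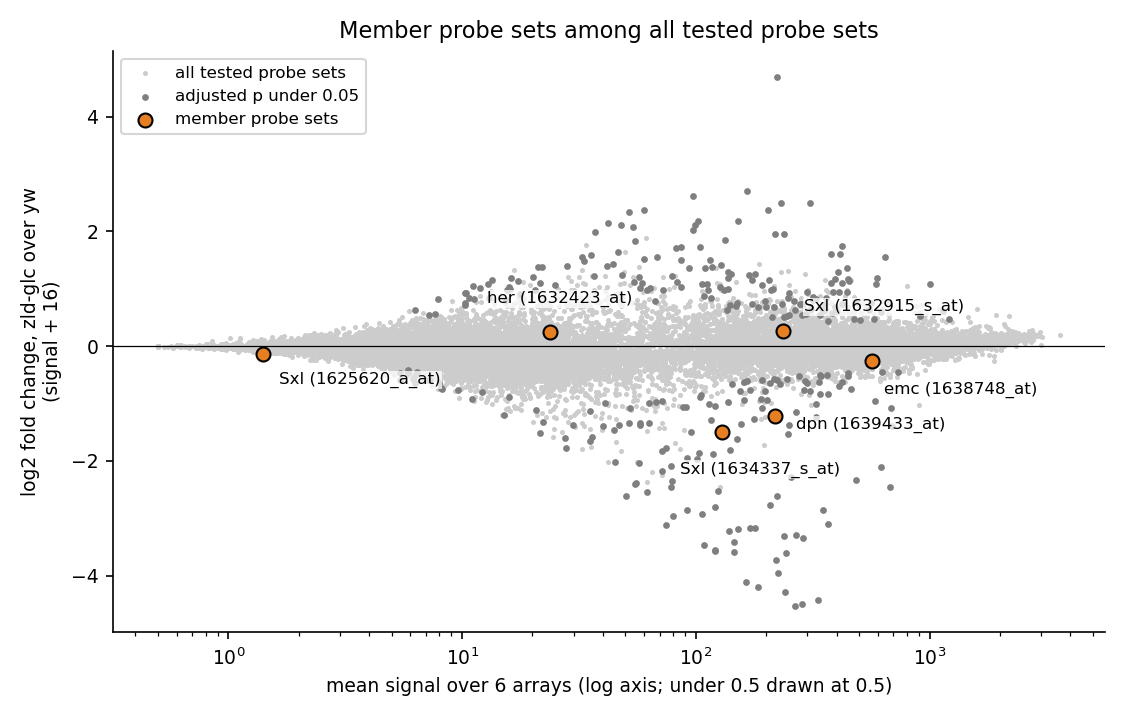
Log2 fold change (zld-glc over yw, signal + 16) against the mean signal over 6 arrays on a log axis, for all 18769 tested probe sets (light grey), those with an adjusted p under 0.05 (dark grey) and the 6 members (orange). The Sxl probe set 1634337_s_at at -1.49 and dpn at -1.22 lie near the lower edge of the cloud, and the other members lie within it.

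Deadpan (dpn), on the second chromosome, encodes a basic helix-loop-helix repressor that counts as an autosomal signal against Sxl and later acts in neuroblasts. The dpn signal was 118.6, 116.5 and 119.5 on the zld-glc arrays. On yw arrays it was 273.2, 488.4 and 195.1. The zld-glc arrays were nearly equal, every yw array was higher, and yw replicate 2 stood highest. The mean was 118 ± 1.54 in zld-glc and 319 ± 152 in yw embryos (SD, n = 3 each), or 2.70 times as high in yw. The log2 fold change was -1.22 (SE 0.272, 95% interval -1.85 to -0.60), and 0.602% of probe sets had a lower value. With an adjusted p of 0.0792 (limma) it was not called. Its adjusted p was 0.0453 with a pseudocount of 1, 0.0269 when dim probe sets were left out, 0.0458 after median centring and 0.0266 without yw replicate 3. Without yw replicates 1 and 2 the log2 fold change was -0.65 (adjusted p = 0.116).

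Extramacrochaetae (emc), on the third chromosome, encodes a helix-loop-helix protein without a DNA-binding basic region, which binds partners such as Daughterless and Scute and keeps them from DNA. Its signals were 440.2, 512.0 and 578.6 on zld-glc arrays and 579.3, 779.2 and 497.3 on yw arrays. The groups overlapped, and yw replicate 2 was again the highest array. The means were 510 ± 69.2 and 619 ± 145 (SD, n = 3 each), a log2 fold change of -0.25 (95% interval -0.64 to 0.13, adjusted p = 0.514, limma). Without yw replicates 1 and 2 the value was 0.03.

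Hermaphrodite (her), also on the second chromosome, encodes a zinc finger protein supplied by the mother that helps to activate Sxl in females. Its signals were 22.0, 25.4 and 34.1 on zld-glc arrays and 19.0, 22.8 and 19.0 on yw arrays. All lay only a little above the background level of 18.1, and the groups overlapped. The log2 fold change of 0.24 was not called (95% interval -0.20 to 0.68, adjusted p = 0.586, limma). On most arrays the signal of her was therefore close to the limit of what can be measured here.

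The spread among the yw arrays touches the Sxl and dpn results. In 4 of the 6 members yw replicates 1 and 2 were both above the other 4 arrays, which held for 14.1% of all probe sets. These were 1634337_s_at, dpn, emc by a narrow margin, and the Sxl probe set under background. The mean of yw replicates 1 and 2 was 2.00 times yw replicate 3 for 1634337_s_at, 1.95 times for dpn, 1.37 times for emc, 1.10 times for her and 1.09 times for 1632915_s_at. Markers of muscle and matrix, which belong to older embryos, showed the same pattern: of 9 measured probe sets of 12 listed genes, 8 were higher on yw replicates 1 and 2 than on the other 4 arrays, and none was called. Their summed signal was 456 on yw replicate 1, 756 on replicate 2 and 178 on replicate 3, against 138 to 177 on the zld-glc arrays. In zld-glc embryos 5 of the 9, among them Mlc2 and up, were at or under background, as was 1 in yw embryos. Neural markers were dim, with sums of 88.8, 187 and 94.2 on the yw arrays and 74.3 to 86.3 on the zld-glc arrays, and ovary and egg shell markers summed to 72.4 to 118 and 52.3 to 85.7. On yw replicate 3, 1634337_s_at was 2.08 times and dpn 1.65 times the zld-glc mean. The muscle and matrix sum on that array was near that of the zld-glc arrays, but 7 of the 9 markers lay above every zld-glc array, at 1.29 to 2.06 times the zld-glc mean. Of these 7, 4 were at or under background on yw replicate 3, and the remaining 2 of the 9, Act87E and LanB1, were below their zld-glc means. Blastoderm markers, which belong to the labelled stage, shared the pattern of the yw arrays: 6 of 7 were higher on yw replicates 1 and 2 than on the other 4 arrays, with sums of 1571, 2026 and 1255 on yw replicates 1, 2 and 3. The part of embryo age in the size of these differences was not tested. In whole embryos, fewer cells or nuclei with a transcript and less RNA in each cannot be told apart.

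**Figure D3:**
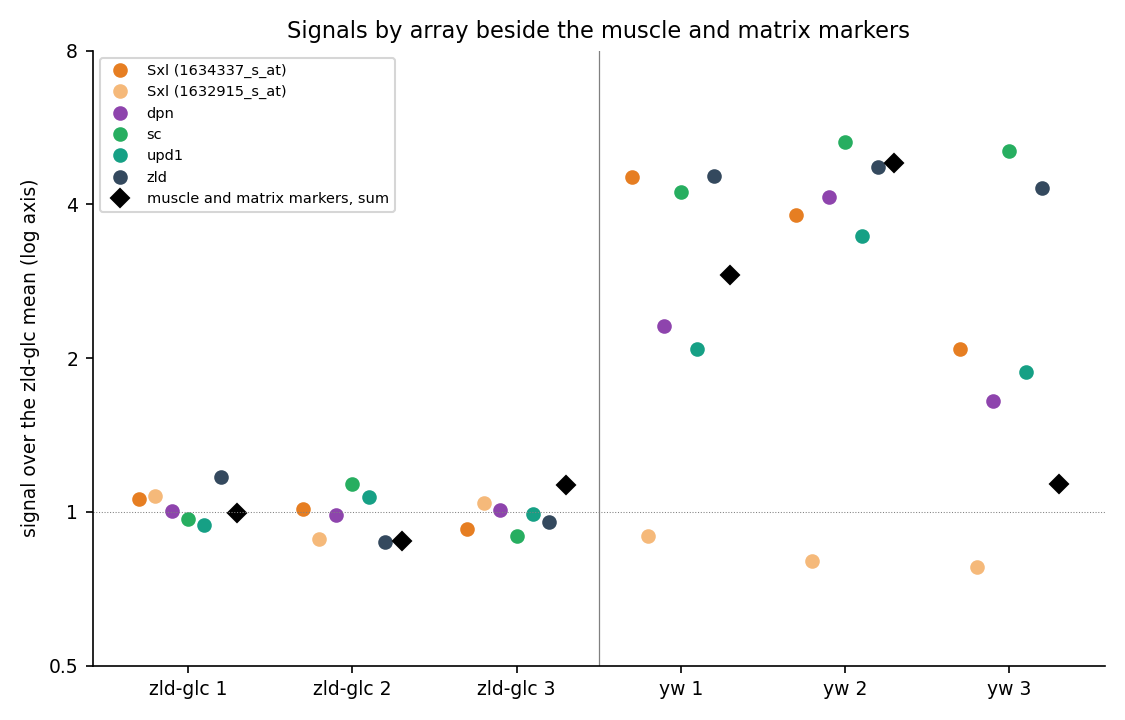
Signal of each array divided by the mean of the 3 zld-glc arrays (log axis) for Sxl probe sets 1634337_s_at and 1632915_s_at, dpn, sc, upd1 and zld, and the summed signal of the 9 muscle and matrix markers (diamonds). On yw replicate 3, 1634337_s_at stands at 2.08, dpn at 1.65 and the marker sum near 1, though 7 of its 9 markers lie at 1.29 to 2.06 times their own zld-glc means.

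**Figure D4:**
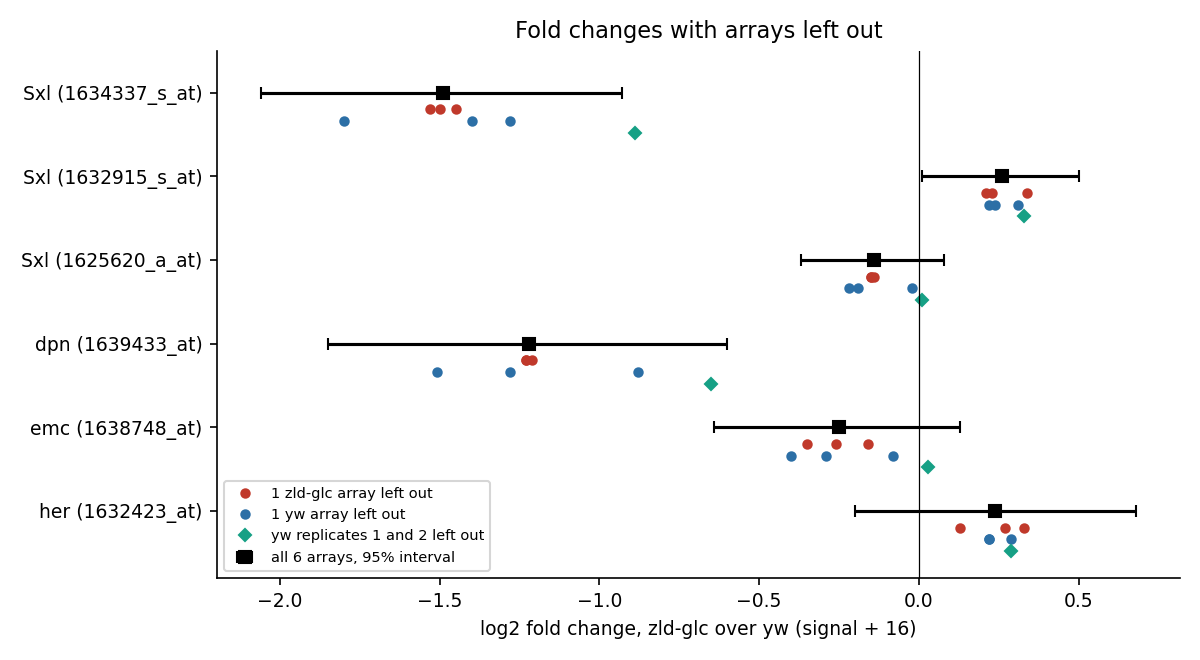
Log2 fold change (zld-glc over yw, signal + 16) of each member with all 6 arrays (squares, 95% interval), with 1 zld-glc array left out (red), 1 yw array left out (blue) and yw replicates 1 and 2 left out (green diamonds). The Sxl probe set 1634337_s_at and dpn stay below 0 throughout, at -0.89 and -0.65 in the last setting, while emc moves to 0.03.

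The X-linked signals that work beside sisA were measured for sc and upd1, and run was not analysed here. Scute (sc), a basic helix-loop-helix activator, fell from 171 ± 20 in yw to 35.1 ± 4.31 in zld-glc embryos (means with SD over 3 arrays), or by 1.87 on the log2 scale (limma, adjusted p = 7.14e-04). Its 3 yw arrays, at 148.5, 186.1 and 178.9, did not share the low value of yw replicate 3 seen for 1634337_s_at. Unpaired (upd1), a ligand of the JAK-STAT pathway, had 45.8, 51.9 and 48.1 on zld-glc and 101.5, 168.6 and 91.4 on yw arrays. Its groups were separate, but at a log2 fold change of -1.04 (adjusted p = 0.0598, limma) it was not called. The share of the yw mean that remained in zld-glc embryos was 20.5% for sc, 28.8% for the Sxl probe set 1634337_s_at, 37.1% for dpn and 40.3% for upd1. Of these 4, sc and the Sxl probe set passed the test.

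The list named transcription partners also held l(1)sc and hry as relatives of sc and dpn, and their action on Sxl was not tested. Among its 6 measured genes of 7 listed, 3 fell and 0 rose, where 0.778% and 0.863% of all tested probe sets did so. Of the 3 that fell, zld, as above, is the gene whose mutation in the mothers defines the zld-glc group. The others were l(1)sc, a proneural neighbour of sc, at -1.94 (adjusted p = 0.00275, limma) and hry, a repressor related to dpn, at -1.36 (adjusted p = 0.0313, limma). The hry call ended in 10 of 16 other settings, while that of l(1)sc ended in 2, the methods' t-test and yw replicates 1 and 2 left out. Daughterless (da), the maternal partner of Scute, had 1196 ± 81.8 in zld-glc and 1059 ± 10.7 in yw embryos, and Groucho (gro), the corepressor that Deadpan recruits, had 224 ± 18 and 171 ± 46.8 (SD, n = 3 each). Neither was called: limma gave log2 values of 0.17 (adjusted p = 0.387) for da and 0.38 (adjusted p = 0.355) for gro.

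None of the later steps passed. The lists of splicing cofactors (13 probe sets of 12 genes, such as fl(2)d and vir), of Sxl targets and lower steps (16 probe sets of 9 genes, such as tra and dsx) and of dosage compensation (6 probe sets of 5 genes, such as mle) held 0 called probe sets in either direction with limma. Their median log2 fold changes were -0.01, -0.08 and 0.19. Of the 16 probe sets of targets and lower steps, 7 had a mean at or under background in zld-glc embryos and 7 in yw embryos. Those of dsx were under background on every array, so no change of dsx could be measured. Over all 43 probe sets of the 5 lists, 4 fell and 0 rose with limma, at a median of -0.01, where 0.778% and 0.863% of all probe sets did so. These 4 include zld, whose mutation in the mothers defines the zld-glc group, so its fall is not a separate result about the pathway. They also include l(1)sc and hry, which were listed as relatives of sc and dpn and whose action on Sxl was not tested. The lists were chosen with earlier results of these data known, so these counts are a description and no test of the pathway. With no adjustment, 9 of the 43 were lower and 2 higher by limma at p under 0.05. By the methods' t-test, which called none after adjustment, 8 were lower and 5 higher. The shares over all probe sets at these levels were 8.67% lower and 6.69% higher by limma, and 7.91% and 5.36% by the methods' t-test.

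The gene msl-2, whose RNA the Sxl protein binds and whose product starts dosage compensation in males, is singled out here after its values were seen. It had 43.3, 48.7 and 44.1 on zld-glc and 110.2, 114.3 and 29.6 on yw arrays, so that yw replicates 1 and 2 were high and yw replicate 3 was below the mutant arrays (log2 fold change -0.57, adjusted p = 0.515, limma).

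**Figure D5:**
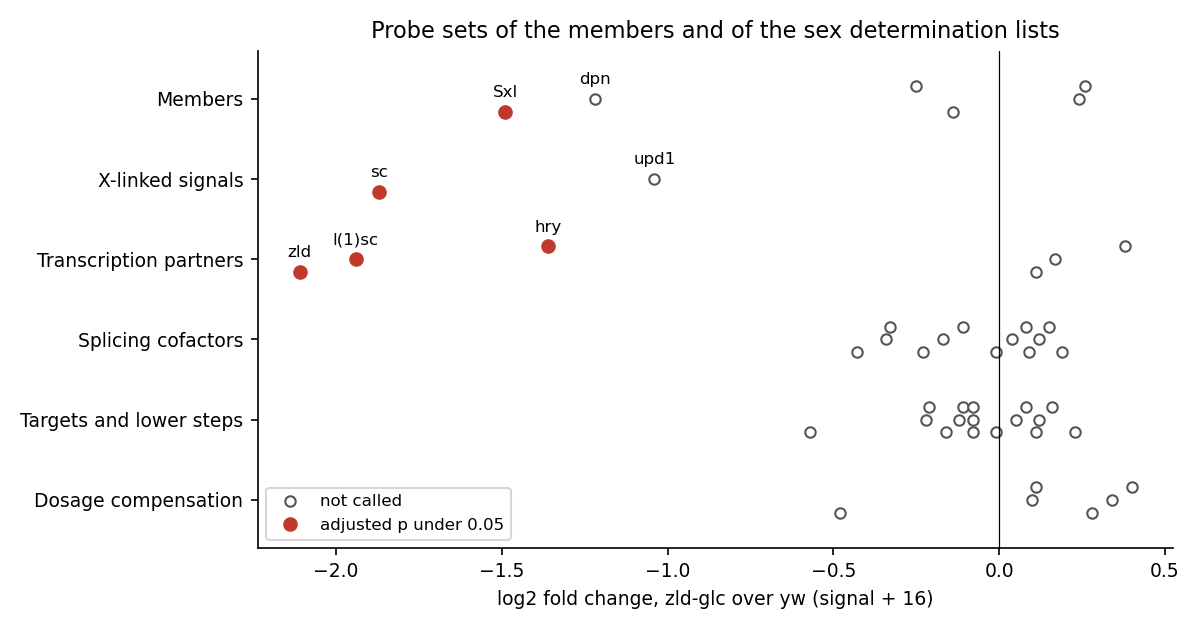
Log2 fold change (zld-glc over yw, signal + 16) of each probe set of the members and of 5 lists of sex determination genes and their relatives. Filled points have an adjusted p under 0.05 (limma). The called probe sets, of Sxl, sc, zld, l(1)sc and hry, all lie below 0. Of these, zld is the gene mutated in the mothers, and l(1)sc and hry were listed only as relatives of sc and dpn. Splicing cofactors, targets and dosage compensation genes lie between -0.57 and 0.40 without a call, some of the targets with means at or under background.

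The probe sets most like each Sxl probe set over the 6 arrays were found among 7688 named ones above the median brightness by Pearson's r on the log2 scale. For 1634337_s_at they were l(3)76BDm (r = 0.998), tor (0.9967) and Bace (0.9966). Their log2 fold changes were -0.64, -0.16 and -0.49, nearer to 0 than the -1.49 of Sxl, and none was called. For 1632915_s_at they were CG7120 (r = 0.9811), key (0.9799) and c(3)G (0.9789), with log2 fold changes of 1.03, 0.21 and 0.36, also not called. With only 6 arrays and so many candidates such values are a description, and both groups enter each r.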

How the data were processed

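Per the labels' protocols and the series text, RNA was extracted with TRIzol, and the authors scanned the arrays and normalized them with the Affymetrix GeneChip Operating Software, whose version no source used here gives. The deposited values are linear intensity signals, 1 per probe set and array, without detection calls. The mean without the lowest and highest 2% of values was equal on all arrays at 3 digits (150.0). Scanner files were not analysed here.

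Gene names came from the platform annotation and were brought up to date by gene identifier through the RefSeq table of Drosophila melanogaster. Of 18769 probe sets tested 13646 had 1 gene, 402 several and 4721 none here. The 183 control probe sets were left out. The test was limma 3.58.1 in R 4.3.3 (lmFit, eBayes with trend) on log2(signal + 16) with group as the only term, checked on simulated data. Tables and figures used Python 3.11.15, pandas 2.3.3, scipy 1.17.1 and matplotlib 3.10.9.

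Members and lists were chosen with earlier results of these data known. The genes named were the members, called list genes, sc, upd1, da, gro and zld, and the 3 probe sets most like each Sxl probe set. Markers and list members given as examples, and msl-2, were picked with their values in view. Alternatives covered the scale (pseudocounts of 1 and 64), dim probe sets left out (mean signal under the median), the scaling of arrays (quantile, or centring on the median), the test (the methods' t-test, eBayes with no trend, array weights, a block for the replicate number) and the arrays used (each left out in turn, then yw replicates 1 and 2 together). A planned search of promoters for motifs was not made, because no sequence was used here. The number of arrays limits the precision.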

Additional observations from a re-analysis of the deposited data

How the results depend on the processing

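Of the members, the Sxl probe set 1634337_s_at kept its direction in all 16 alternatives and its call in 8, with log2 fold changes from -1.80 to -0.89. For dpn the direction held in all 16 and a call was made in 4. The Sxl probe set 1632915_s_at and her kept their direction in 16 of 16 without a call. The sign turned for emc without yw replicates 1 and 2 (0.03), and for the Sxl probe set under background there and with median centring (0.01 in both), which moves the median of all probe sets by 0.157. Members called lower were 2 with a pseudocount of 1, the filter on dim probe sets or median centring, and 0 with a pseudocount of 64, eBayes without trend, the methods' t-test or yw replicates 1 and 2 left out, and 0 to 2 when 1 array was left out; the cause was not tested. Over all probe sets, lower and higher calls were 264 and 327 with the filter, which tests fewer probe sets, 127 and 552 with median centring, 0 and 2 with the methods' t-test, and 43 and 51 without yw replicates 1 and 2, where the lone yw array was assumed to vary like the others. Leaving out 1 array gave 45 to 213 lower and 35 to 227 higher. Pathway probe sets called lower were 0 with the methods' t-test, 2 without yw replicates 1 and 2, and 3 to 5 with 1 array left out. The difference in the log2 ratio of the Sxl probe sets was -1.30 with a pseudocount of 64, -1.22 without yw replicates 1 and 2, and -2.01 to -1.60 with 1 array left out. Arrays of the same replicate number deviated together weakly or not at all (r of 0.175, -0.011 and -0.032 for numbers 1, 2 and 3). Arrays of unequal numbers gave r of -0.128 to 0.14. This is no clear sign that the numbers pair the samples, but it cannot exclude pairing. With the replicate block 76 probe sets were lower and 75 higher, 1634337_s_at remained called (adjusted p = 0.0375, limma) and hry did not (adjusted p = 0.0758). The signals of her lay mostly near 18.1 and those of the Sxl probe set 1625620_a_at far under it, which limits what both can show.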
